A study of Mus musculus with 12 samples.

Results

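RNA of mouse liver was measured here for the ribosomal proteins and the initiation and elongation factors of translation. A member was a measured cDNA clone with 1 gene symbol of the small ribosomal subunit (Rps and Rpsa), the large subunit (Rpl and Rplp), an initiation factor (Eif) or an elongation factor (Eef). By this rule 56 of the 2151 measured clones were members, and they named 29 genes: 8 of the small subunit, 14 of the large subunit, 3 initiation factors and 4 elongation factors. The rule reads gene symbols only, but the symbols rest on a spot order inferred from the values, as described below. The label is a class of genes, so no cell type had to be checked for it.

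Ribosomal proteins fold with ribosomal RNA into the small subunit, which reads the messenger RNA, and the large subunit, which joins amino acids. Initiation factors load the messenger RNA and the initiator tRNA, and elongation factors deliver each further tRNA and move the ribosome on. Hepatocytes make most proteins of blood plasma and hold many ribosomes, and the messenger RNAs of ribosomal proteins and of several elongation factors belong to a class whose translation is set by growth signals through mTOR.

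Livers came from adult mice that lacked hemopexin (Hx-null, Hp+/Hx-/-), haptoglobin (Hp-null, Hp-/-Hx+/) or both (HpHx-null, Hp-/-Hx-/-), and from wild-type mice (Hp+/Hx+/). Hemopexin binds heme and haptoglobin binds hemoglobin in plasma. All were littermates from crosses of Hp+/-Hx+/- double heterozygotes on the mixed background C57/BLJ6 X 129Sv, and no treatment other than perfusion with PBS is named in the labels. At least 5 livers were pooled per genotype, and each null pool was hybridised on 4 two-colour spotted cDNA arrays against 1 wild-type pool, with Cy5 in the null on replicates 1 and 2 and Cy3 on replicates 3 and 4. The 4 arrays of a genotype are therefore repeated measurements of the same pair of pools: each p-value below sets a difference between pools against the spread between arrays, not between mice. In RNA of whole liver, fewer cells of a type and less RNA per cell cannot be told apart. The annotation names 0 clones for the deleted genes, so the genotypes were not checked on the arrays.

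Each value is a log2 ratio of null and wild-type RNA for 1 clone or 1 gene on 1 array, after each array was centred on its median. It says nothing of the level of one gene against another. The direction of the ratios is not settled, so values keep their deposited sign and are called positive or negative rather than higher or lower in the null. The base of the logarithm is not given in the sources used here and was taken as 2. An array held 3009 to 4165 of 31200 spots with a value. Arrays with the same labelled dye correlated across clones at 0.83 to 0.85 in Hx-null, but at -0.78 to -0.56 in Hp-null and -0.65 to -0.25 in HpHx-null. The first principal component of the values carried 72.0% of their sum of squares, and its sign divided the 12 arrays into blocks A and B of 6 each, with 2 arrays of every genotype. Block A held Hx-null replicates 1 and 2, Hp-null replicates 2 and 3 and HpHx-null replicates 1 and 4, and block B held the others. The blocks are named from the values alone. Every gene name rests on reading the spot numbers of the annotation in reverse, which was inferred from the values.

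Elongation factor Eef1a1 had the most measured clones of any member, and initiation factors had the smallest share of clones measured among the 4 classes. Of 277 annotated clones of 117 genes of these classes, 56 clones (20.2%) of 29 genes held values, against 13.8% of all 15600 clones. Eef1a1, which brings aminoacyl-tRNA to the ribosome, had 13 of its 17 clones measured (76.5%), and without it the share was 43 of 260 clones (16.5%). The small subunit had 11 of 55 clones measured and the large subunit 26 of 105. Only 3 of 82 clones of initiation factors (3.66%) held values, 1 each of Eif2b5, Eif3a and Eif3h. With the annotation read in direct order, 35 of the 277 clones (12.6%) and 2 of the 17 of Eef1a1 held values. The reverse order was itself inferred from the values, so this contrast is no independent test of the gene names. The filter that removed spots is not given in the sources used here, so a missing value does not show a low level. Of the 29 genes, 19 held a value on all 12 arrays, and the other 10 on 7 to 11.

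Promoter sequence was available for members whose ratios the results turn on. The RefSeq promoter table (GRCm38.p6) listed 22 of the 29 genes, and 3 motifs were counted on both strands in windows of 300 bases, 1 per gene. CCGGAAG, the core bound by ETS factors such as GABP, was found in 9 of the 22 (40.9%) and in 9.14% of 27025 windows in the table. GGGCGG, the core of GC boxes bound by Sp1, was found in 12 (54.5%) and in 35.9% of all windows. TATAAA, read by the general factor that starts transcription at such promoters, was found in 3 (13.6%) and in 14.2%. Eef1a1 is shown because it had the largest difference between the blocks. Rpl10 and Rpl27a are shown as examples of members with negative ratios on every array of Hp-null. Others in the promoter table, Rps2, Rpl23 and Rpl31 among them, were negative there too and are not shown. Rps2 was counted for all 3 motifs. Each line gives 180 bases before and 20 bases after the annotated start, 5′ to 3′ on the strand of the gene, with capitals marking matches to the first 2 of these motifs on either strand.
Eef1a1, chr9:78481705-78481904, minus strand: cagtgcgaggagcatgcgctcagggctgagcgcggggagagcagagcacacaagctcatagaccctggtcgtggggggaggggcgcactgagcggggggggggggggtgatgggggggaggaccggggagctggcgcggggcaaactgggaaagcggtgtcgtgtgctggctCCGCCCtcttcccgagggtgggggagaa
Rpl10, chrX:74270636-74270835, plus strand: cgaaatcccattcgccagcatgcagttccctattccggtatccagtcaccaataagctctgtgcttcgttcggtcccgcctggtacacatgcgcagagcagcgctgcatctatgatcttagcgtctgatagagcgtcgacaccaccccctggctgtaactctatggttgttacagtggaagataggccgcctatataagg
Rpl27a, chr7:109519015-109519214, plus strand: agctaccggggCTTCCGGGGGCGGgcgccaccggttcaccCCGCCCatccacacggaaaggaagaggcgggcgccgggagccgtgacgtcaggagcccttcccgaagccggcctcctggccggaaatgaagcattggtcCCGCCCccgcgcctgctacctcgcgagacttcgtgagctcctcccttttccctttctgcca
In Rpl27a a CCGGAAG match on the reverse strand runs directly into a GGGCGG match. The Eef1a1 window holds 1 GGGCGG match, close before the start. The 200 bases shown for Rpl10 hold no match, and the GGGCGG match counted for it lies in the rest of its 300 bases. These matches are letters in the reference and were not tested as binding sites.

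With the fit by labelled dye, 0 members passed in any of the 7 comparisons. The model was limma with robust eBayes over the 12 arrays. It held a coefficient for each genotype and a term for the labelled dye, with Benjamini-Hochberg adjustment over all features tested, where a feature is a gene, or a single clone that has no unique symbol, and passes at an adjusted p under 0.05. In Hx-null against wild-type, 0 of 27 members passed and 0 had an unadjusted p under 0.05; of all 1865 features 0.643% passed. In Hp-null, 0 of 29 members and 0% of 2017 features passed, and 5 members had an unadjusted p under 0.05. In HpHx-null, 0 of 22 members and 0% of 1711 features passed, and 0 members had an unadjusted p under 0.05. Between the nulls, 0 of 27 members passed in Hp-null against Hx-null (0.595% of all features), 0 of 22 in HpHx-null against Hx-null (0%), 0 of 22 in HpHx-null against Hp-null (0%), and 0 of 22 in HpHx-null against the sum of the single nulls (0%). The counts of members at an unadjusted p under 0.05 were 1, 0, 1 and 1 in these 4 comparisons. The counts of all features at an unadjusted p under 0.05 are not given here. The members' counts are therefore not read as more or fewer than among other features. The same limma fit without moderation also called 0 members in all 7.

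With the deposited sign, more ribosomal proteins had negative than positive ratios, by a small amount. The median over the members tested was -0.07 for Hx-null, -0.10 for Hp-null and -0.05 for HpHx-null, against -0.01, -0.01 and -0.02 over all features tested. Of the ribosomal proteins tested, 15 of 20 were negative in Hx-null, 16 of 22 in Hp-null and 11 of 16 in HpHx-null, while 967 of 1865, 1068 of 2017 and 985 of 1711 of all features were; all 3 comparisons share the wild-type pool. With the arrays turned by the labelled dye, the members' medians were -0.04 for Hx-null, -0.03 for Hp-null and 0.01 for HpHx-null. Turned by block they were -0.04, -0.04 and 0.04. The ribosomal proteins with a negative ratio after these turns were 13 of 20, 12 of 22 and 8 of 16 by the labelled dye, and 13 of 20, 13 of 22 and 8 of 16 by block. Of all features 53%, 60.3% and 54.2% were negative when turned by the labelled dye, and 53%, 52.9% and 53.8% by block. With a block term in place of the dye term and no turn, the ribosomal counts were again 15 of 20, 16 of 22 and 11 of 16. All features were then negative at 57%, 52.1% and 62.8%.

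**Figure D1:**
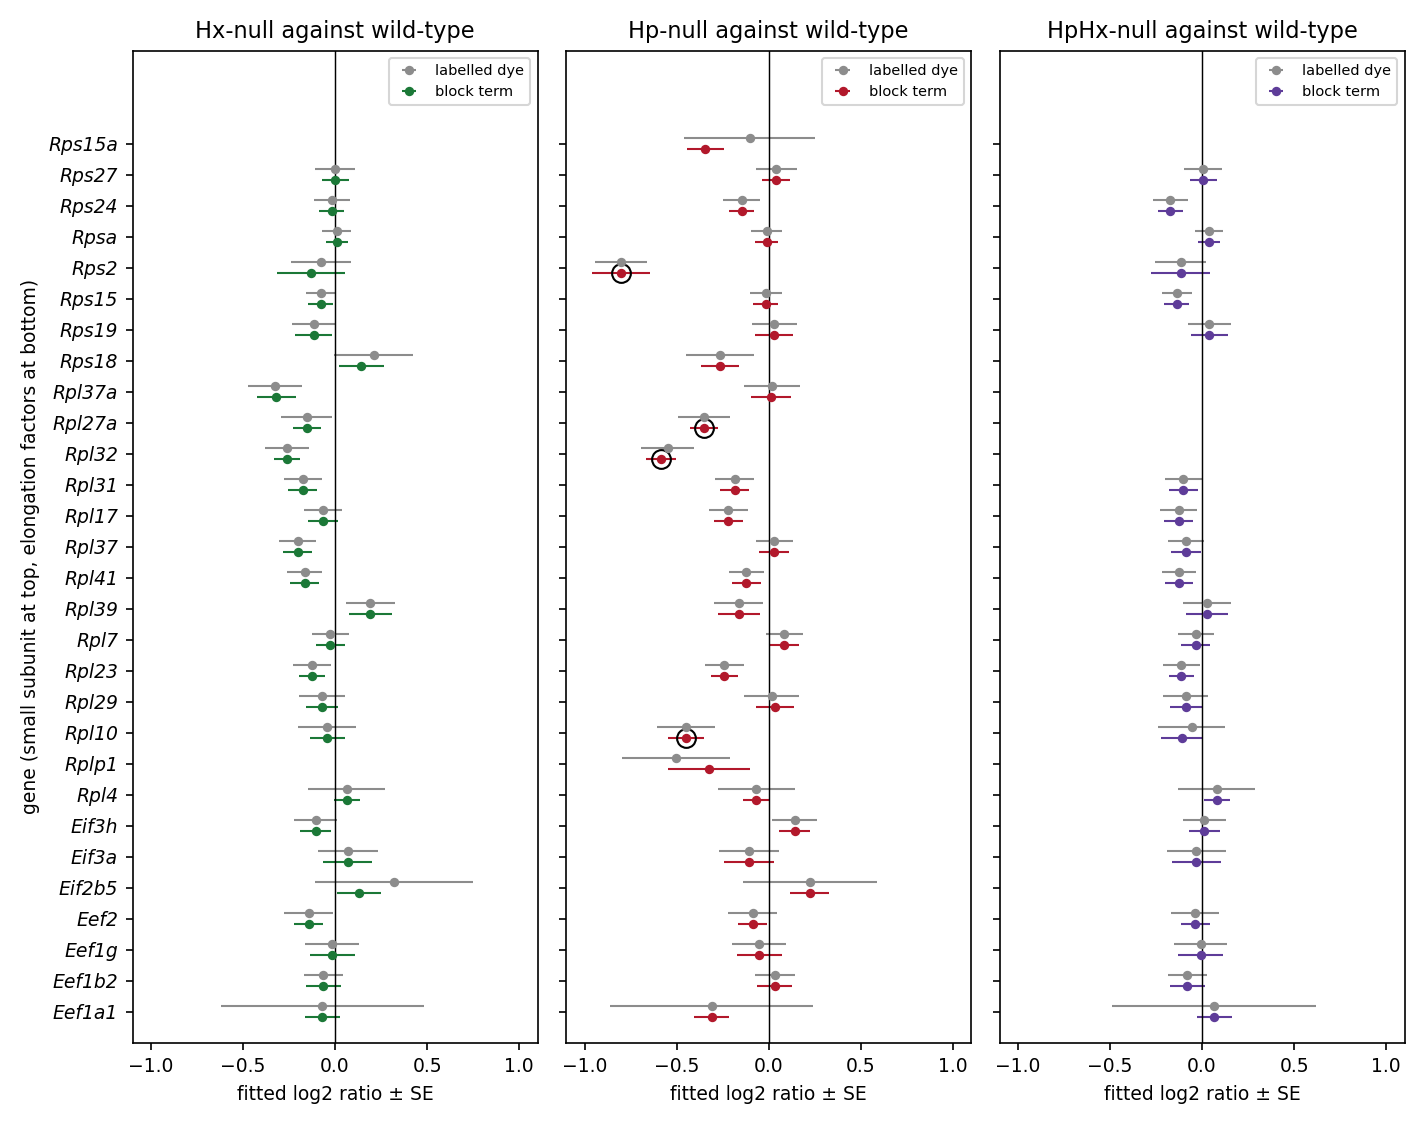
Fitted log2 ratio ± SE of each member tested (rows) in each null against wild-type (panels), with the labelled dye term in grey and the block term in colour. Black circles mark the 4 members with an adjusted p under 0.05, all with the block term in Hp-null, and the SE of Eef1a1 is 0.55 with the labelled dye and 0.09 to 0.10 with the block term.

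Replacing the labelled dye with the block, 4 ribosomal proteins passed in Hp-null, all with negative ratios: Rps2, Rpl32, Rpl10 and Rpl27a. They were 4 of 29 members tested, while 2.53% of all features passed, and 1.69% passed with a negative ratio. The block was read from these values, so the calls rest on a term fitted to the same data. In Hx-null 0 of 27 members passed (2.04% of all features, 1.82% with a positive ratio) and in HpHx-null 0 of 22 (5.44%, 5.14% with a positive ratio), with 4 and 1 members at an unadjusted p under 0.05 in this limma fit. In Hp-null against Hx-null 0 of 27 passed (1.14%), and in HpHx-null against Hx-null 0 of 22 (0.181%). In HpHx-null against Hp-null 0 of 22 passed (0%), and against the sum of the single nulls 0 of 22 (0.0608%). In these 4 comparisons 5, 0, 3 and 3 members had an unadjusted p under 0.05. The percentages are shares at the adjusted threshold. Shares of all features at an unadjusted p under 0.05 are not given here, so no excess among members is read from these counts.

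Rps2 is a protein of the small subunit near the channel where messenger RNA enters. Only 1 of its 2 annotated clones was measured. Rps2 ratios on replicates 1 to 4 were -0.43, -0.21 and 0.17 (no value on replicate 4) in Hx-null, -1.45, -0.93, -0.42 and -0.41 in Hp-null, and -0.48, 0.07, 0.03 and -0.09 in HpHx-null. All 4 arrays of Hp-null were negative, and 2 of them lay below every array of the other genotypes, while the other 2 overlapped with the lowest arrays of Hx-null and HpHx-null. The Hp-null mean was -0.80 ± 0.50 (SD, n = 4 arrays), and the fitted ratio was -0.80 (SE 0.16, limma adjusted p = 0.0217 with the block term, and SE 0.14, adjusted p = 0.57 with the labelled dye). Hp-null replicates 2 and 3 of block A were -0.93 and -0.42, and replicates 1 and 4 of block B were -1.45 and -0.41. The difference of Hp-null from Hx-null was -0.67 (SE 0.24, limma adjusted p = 0.252 with the block term).

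Rpl32 and Rpl27a are proteins of the large subunit. For Rpl32 the arrays gave -0.43, -0.47, -0.03 and -0.12 in Hx-null, -0.47, -0.78 and -0.31 (no value on replicate 2) in Hp-null, and -0.47 and -0.40 (no value on replicates 2 and 3) in HpHx-null. Every value was negative, on 9 of 9 arrays. Hp-null replicate 3 was the lowest, replicate 1 was level with the lowest array of Hx-null, and replicate 4 lay within the other genotypes. The fitted Hp-null ratio was -0.59 (SE 0.08, limma adjusted p = 0.00539 with the block term; -0.55, SE 0.14, adjusted p = 1 with the labelled dye). In Hx-null the block term gave -0.26 (SE 0.07, limma adjusted p = 0.079), and the difference of Hp-null from Hx-null was -0.32 (limma adjusted p = 0.227). The values of Rpl27a were -0.36, -0.26, 0.11 and -0.10 in Hx-null, -0.06, -0.47, -0.67 and -0.21 in Hp-null, and -0.22 (no value on replicates 1, 2 and 3) in HpHx-null. Hp-null was negative on all 4 arrays and Hx-null on 3, with overlapping ranges. These values came from 1 of the 2 annotated clones of Rpl27a. The fitted Hp-null ratio of Rpl27a was -0.35 (SE 0.08, limma adjusted p = 0.0422 with the block term, and SE 0.14, adjusted p = 1 with the labelled dye). HpHx-null was not tested for Rpl32 or Rpl27a, with fewer than 3 arrays. The values of Rpl32 average 2 clones that shared too few arrays for a correlation. Its Hp-null replicate 1 came from 1 clone alone, as did replicates 3 and 4 of Hx-null and replicate 1 of HpHx-null from the other. With clones apart and the block term, the first clone of Rpl32 had an Hp-null ratio of -0.73 (SE 0.12, limma adjusted p = 0.022), and the other, at -0.59 and -0.15 on 2 arrays of Hp-null, was not tested.

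Rpl10, which completes the large subunit before it can join the small one, had 4 measured clones that moved alike. Rpl10 measured 0.31, 0.28, -0.38 and -0.38 in Hx-null, -0.62, -0.52, -0.32 and -0.33 in Hp-null, and 0.09, -0.39 and 0.18 (no value on replicate 3) in HpHx-null. In Hp-null all 4 arrays were negative and lay close together, at a mean of -0.45 ± 0.15 (SD, n = 4 arrays), whereas in Hx-null the sign followed the block. Of the single clone values in Hp-null, 15 of 15 were negative, and the 4 clone means ran from -0.50 to -0.37. The pairs of clones correlated over the arrays at 0.73 to 0.93. The fitted ratio was -0.45 (SE 0.10, limma adjusted p = 0.0347 with the block term, and SE 0.16, adjusted p = 1 with the labelled dye). The difference of Hp-null from Hx-null was -0.41 (limma adjusted p = 0.224 with the block term) and that of HpHx-null from Hp-null was 0.34 (adjusted p = 0.369), so no difference between nulls passed for it.

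The 4 calls depended on single arrays and on the direction of the ratios. Without Hp-null replicate 1 the block term called 0 members, and without Hp-null replicate 2 or without HpHx-null replicate 4 it called 1, Rpl32. Without Hp-null replicate 3 it called 3, namely Eef1a1, Rpl32 and Rps2; without any other single array it called 3 or 4. The share of all features called was 0.394% without Hp-null replicate 1, 0.585% without its replicate 2, 4.91% without its replicate 3 and 1.02% without HpHx-null replicate 4. Each of the 4 genes lacked a value on at least 1 array, so a fit of only the features measured on all 12 arrays could not call them. With the block term that fit called 0 of 19 members and 0.531% of 1129 features in Hp-null. With the arrays turned by block the Hp-null ratios were 0.13 for Rps2, -0.01 for Rpl32, 0.03 for Rpl10 and -0.22 for Rpl27a. Turned by the labelled dye they were -0.39, 0.08, -0.12 and 0.09.

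**Figure D2:**
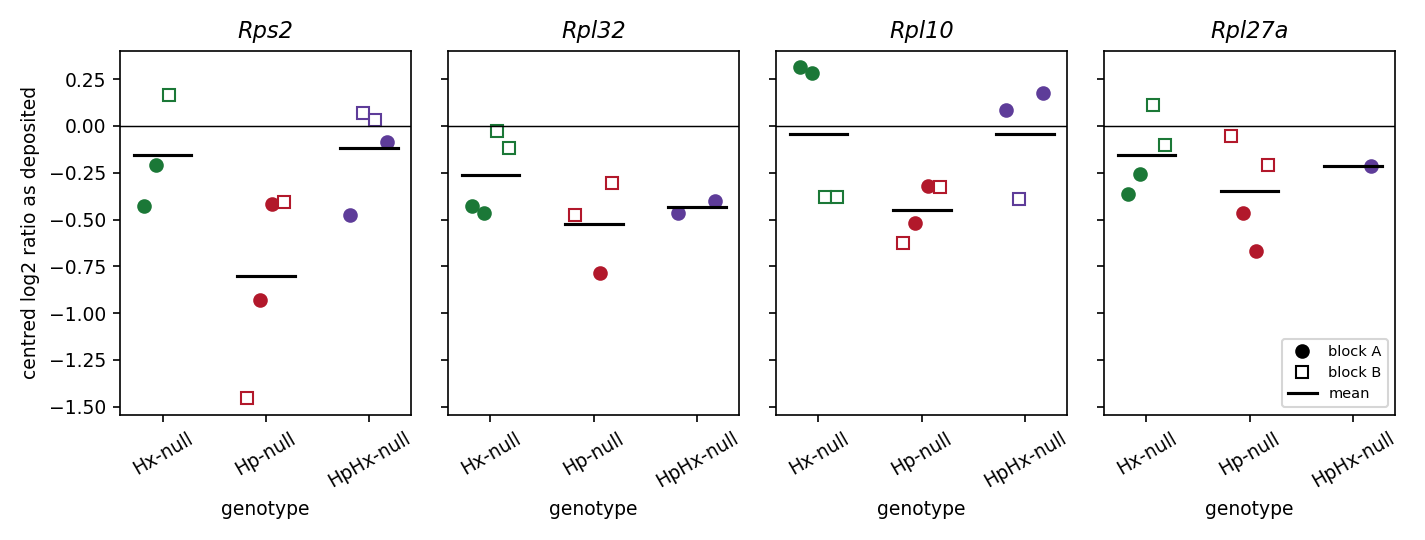
Centred log2 ratio with deposited sign (vertical axis) of the 4 genes called with the block term in Hp-null, on every array of the 3 genotypes (horizontal axis). Filled circles are arrays of block A, open squares arrays of block B and black lines means; all Hp-null values are negative, and the mean of Rps2 there is -0.80.

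With the block term, some liver cell markers passed in the same pools, and with the labelled dye 0 of the 9 measured marker genes passed in any of the 3 nulls (lowest limma adjusted p = 0.275, Fcgr1 in HpHx-null). Of the 7 annotated hepatocyte marker genes 6 were measured, and in Hp-null against wild-type their ratios with the block term ran from -0.55 (Ttr, the plasma carrier transthyretin, limma adjusted p = 0.0407) to 0.535 (Serpina1e, an antitrypsin, adjusted p = 0.133), with 1 of 6 passing. In Hx-null 1 of 6 passed (Bhmt, 0.65, limma adjusted p = 0.00109) and in HpHx-null 3 of 6 (Serpina1e, Mat1a and Bhmt, 0.425 to 1.37). The macrophage markers measured were Fcgr1 and Fcer1g, with Hp-null ratios of -0.08 and 0.01, and Fcgr1 passed in HpHx-null with the block term (0.52, limma adjusted p = 0.0147). Tfrc was the erythroid marker measured, with -0.01 in Hp-null; 0 genes of the lists for lymphocytes, endothelial, stellate and bile duct cells were measured. The part of these cells in the members' ratios was not tested.

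Across all genotypes the strongest pattern among the members was that of Eef1a1, whose sign followed the block on every array. Eef1a1 ratios on replicates 1 to 4 were 0.94, 1.04, -1.20 and -1.05 in Hx-null, -1.31, 0.46, 0.93 and -1.31 in Hp-null, and 0.91, -1.16, -0.65 and 1.17 in HpHx-null. The 6 arrays of block A ran from 0.46 to 1.17 and the 6 of block B from -1.31 to -0.65, with no overlap. The block mean difference, A minus B, was 2.02, and 30 of 1969 features had a larger one. With the block term the ratios were -0.07 (SE 0.09) in Hx-null, -0.31 (SE 0.10, limma adjusted p = 0.11) in Hp-null and 0.07 in HpHx-null. Turned by block, its means were 1.06 ± 0.11 for Hx-null, 1.005 ± 0.40 for Hp-null and 0.97 ± 0.24 for HpHx-null (SD, n = 4 arrays each), given without a test because the block was read from these values.

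The 13 clones of Eef1a1 shared this pattern at different sizes. Their pairwise correlations over the arrays ran from 0.66 to 0.997, with a median of 0.95. In block A 69 of 72 clone values were positive, and in block B 74 of 74 were negative. The difference between blocks ranged from 0.42 to 3.11 over the clones, with a median of 2.21. Clones of 1 gene share its messenger RNA, so they are not replicates of a genotype, and cDNA clones of Eef1a1 may also bind RNA of near-identical copies.

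**Figure D3:**
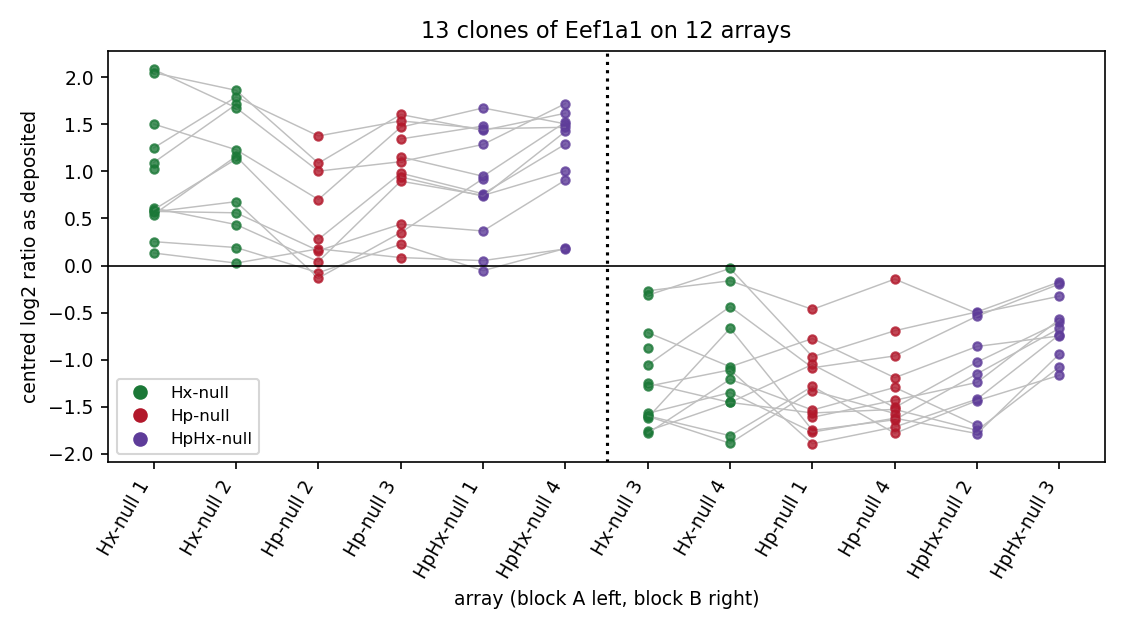
Centred log2 ratio with deposited sign (vertical axis) of the 13 measured Eef1a1 clones on the 12 arrays (horizontal axis, block A left and block B right), with lines joining the values of a clone within a block. In block A 69 of 72 values are positive and in block B all 74 are negative, at sizes that differ between clones.

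The other elongation factors did not split as widely. For Eef1b2 the arrays gave 0.28, -0.20, -0.14 and -0.19 in Hx-null, 0.11, 0.05, -0.15 and 0.12 in Hp-null, and 0.15, -0.12, -0.35 and 0.0045 in HpHx-null. The values of Eef1g were 0.03, -0.02, 0.03 and -0.11 in Hx-null, 0.29, -0.71, 0.0021 and 0.21 in Hp-null, and 0.16, -0.07, -0.13 and 0.0027 in HpHx-null. Eef1b2 and Eef1g are subunits of the complex that recharges Eef1a1 with GTP, and both had arrays of either sign in each block. Eef1g was negative by 0.71 on Hp-null replicate 2 and lay between -0.13 and 0.29 on all others. Eef2 measured -0.46, -0.40, 0.19 and 0.08 in Hx-null, 0.13, -0.09, -0.35 and -0.04 in Hp-null, and -0.15, 0.19, -0.07 and -0.12 in HpHx-null. For Eef2, which moves the ribosome along the messenger RNA, all 6 arrays of block A were negative and 4 of 6 of block B positive. Its difference between blocks, A minus B, was -0.34, opposite in sign to Eef1a1. None of these 3 genes passed in the 7 comparisons with either term.

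Among initiation factors, Eif2b5 followed the blocks on every array that held it, and the eIF3 subunits did so in some genotypes only. Eif2b5 ratios on replicates 1 to 4 were 0.55, 0.83 and -0.28 (no value on replicate 4) in Hx-null, -0.70, 1.08, 1.08 and -0.56 in Hp-null, and 0.86 and 0.84 (no value on replicates 2 and 3) in HpHx-null. Eif2b5, the catalytic subunit of the factor that recharges eIF2 with GTP, was positive on all 6 arrays of block A and negative on the 3 of block B that held it. Its difference between blocks was 1.39, the next after Eef1a1 among the members, and 244 of 1969 features had one of larger size. Its ratio with the block term was 0.13 (SE 0.12) in Hx-null and 0.22 (SE 0.10, limma adjusted p = 0.27) in Hp-null, and HpHx-null was not tested. For Eif3a the arrays gave 0.32, 0.19, -0.12 and -0.11 in Hx-null, 0.27, -0.54, -0.08 and -0.07 in Hp-null, and 0.38, -0.36, -0.34 and 0.20 in HpHx-null. The values of Eif3h were -0.07, -0.33, 0.07 and -0.08 in Hx-null, 0.31, -0.02, -0.18 and 0.46 in Hp-null, and 0.09, -0.07, 0.10 and -0.07 in HpHx-null. Eif3a, the scaffold of eIF3, was positive in block A and negative in block B in Hx-null and HpHx-null, but not in Hp-null. Eif3h, another subunit, was negative in block A and positive in block B in Hp-null alone. Over all genotypes both genes had both signs within a block. Their block-term ratios against wild-type ran from -0.11 to 0.14.

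**Figure D4:**
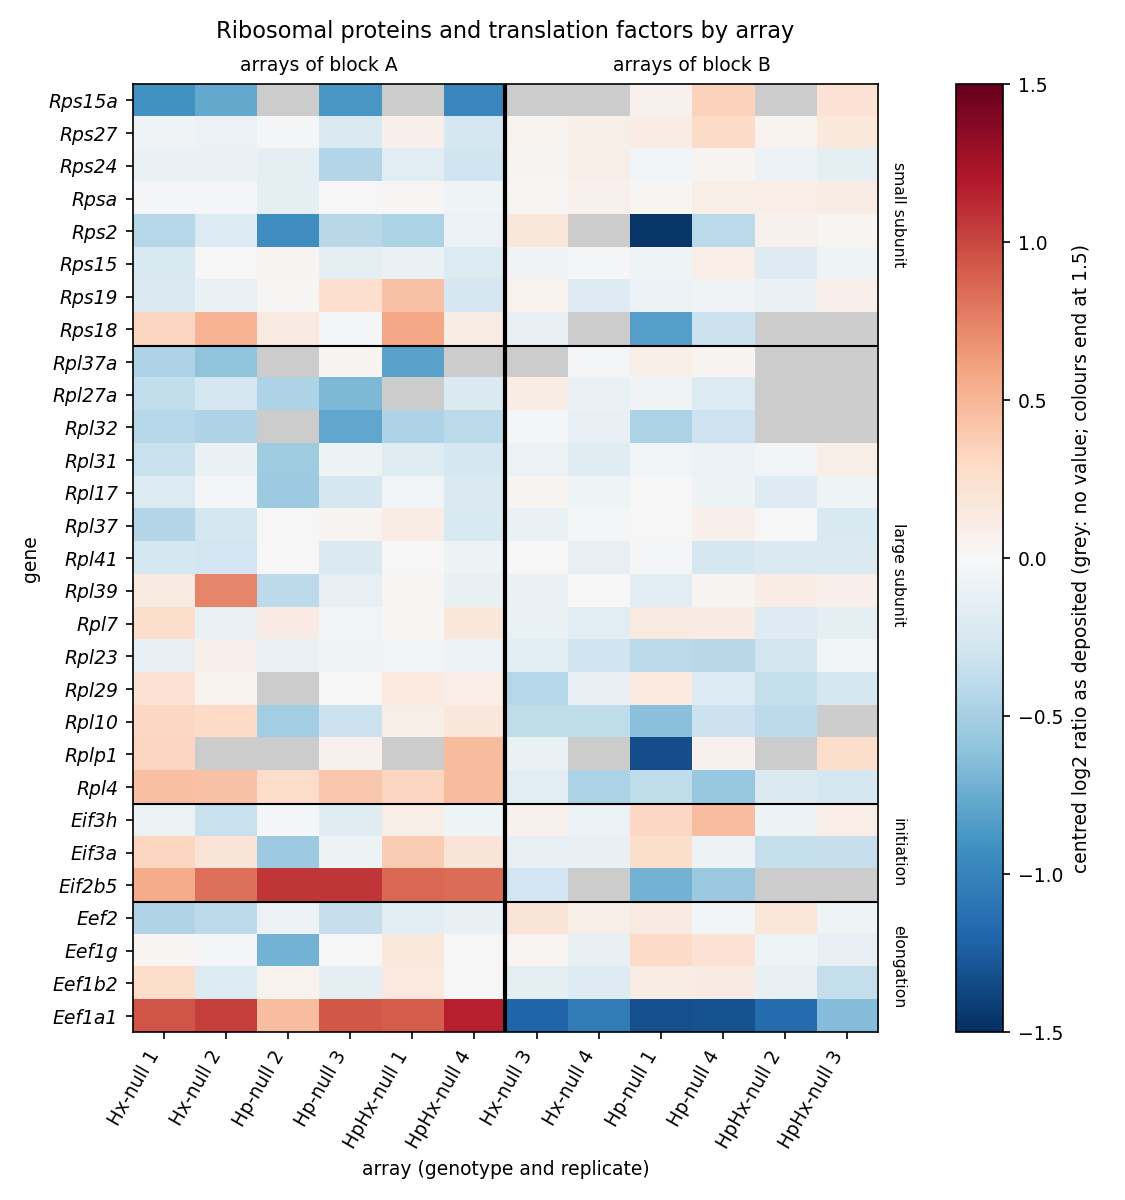
Centred log2 ratio with deposited sign of each member (rows, grouped by class) on each array (columns, block A left of the black line and block B right), as colour from blue, negative, to red, positive; grey cells hold no value. Eef1a1 and Eif2b5 turn from red in block A to blue in block B, and Rps15a from blue to red, while most ribosomal proteins stay pale.

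Most ribosomal proteins differed little between the blocks. The median size of the difference between blocks was 0.21 over the 29 members and 0.54 over 1969 features, and 6 of the 29 members exceeded the latter. These were Eef1a1, Eif2b5, Rps15a (-1.09), Rpl4 (0.74), Rps18 (0.69) and Rplp1 (0.56). Over all features the 5th and 95th percentiles were -0.85 and 1.74, so of the members Eef1a1 and Rps15a lay outside them.

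Rps15a measured -0.90 and -0.77 (no value on replicates 3 and 4) in Hx-null, 0.06, -0.87 and 0.34 (no value on replicate 2) in Hp-null, and 0.21 and -0.98 (no value on replicates 1 and 2) in HpHx-null. Rps15a, of the small subunit, was negative on the 4 arrays of block A and positive on the 3 of block B that held it, with no overlap, the reverse of Eef1a1. The blocks were read from these same values, and features that split without overlap were not counted over the whole series. A block difference of larger size than that of Rps15a was found in 449 of 1969 features. Rpl4 ratios on replicates 1 to 4 were 0.45, 0.44, -0.17 and -0.47 in Hx-null, -0.38, 0.27, 0.40 and -0.56 in Hp-null, and 0.32, -0.22, -0.26 and 0.48 in HpHx-null. Rpl4 lines the exit tunnel of the large subunit, and 732 of 1969 features had a block difference of larger size. Rpl4 was positive on 6 of 6 arrays of block A and negative on 6 of 6 of block B. Its 3 clones were unlike each other: 1 pair correlated at 0.95 and the others at 0.19 and -0.14, and 1 clone stayed between -0.29 and 0.11 on every array that held it. For Rps18 the arrays gave 0.32, 0.52 and -0.11 (no value on replicate 4) in Hx-null, -0.82, 0.13, -0.03 and -0.33 in Hp-null, and 0.57 and 0.11 (no value on replicates 2 and 3) in HpHx-null. The values of Rplp1 were 0.33 and -0.09 (no value on replicates 2 and 4) in Hx-null, -1.33, 0.06 and 0.07 (no value on replicate 2) in Hp-null, and 0.26 and 0.47 (no value on replicates 1 and 2) in HpHx-null. Rps18, of the small subunit, and Rplp1, a stalk protein that recruits elongation factors, each had a low value on Hp-null replicate 1, of -0.82 and -1.33. Rplp1 held values on 7 arrays.

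The remaining members of the small subunit stayed close to 0, with block-term ratios against wild-type between -0.17 and 0.04. Rps15 measured -0.23, 0.003, -0.06 and -0.03 in Hx-null, -0.06, 0.04, -0.13 and 0.10 in Hp-null, and -0.10, -0.19, -0.06 and -0.21 in HpHx-null. Rps24 ratios on replicates 1 to 4 were -0.10, -0.10, 0.04 and 0.09 in Hx-null, -0.04, -0.15, -0.44 and 0.04 in Hp-null, and -0.17, -0.08, -0.14 and -0.30 in HpHx-null. Rps15 had 3 clones whose pairs correlated at 0.35 to 0.63, and the 2 clones of Rps24 correlated at 0.60. Rps15 and Rps24 were both negative on all 4 arrays of HpHx-null, as were Rpl17 and Rpl23 of the large subunit. Rps24 had a fitted -0.17 there that did not pass, and -0.06 with the arrays turned by block. The HpHx-null mean of Rps15 was -0.14, and -0.01 turned by block. Of the Rps15 clones, 1 that was measured on 6 arrays lay further from 0, between -0.64 and -0.05. For Rps19 the arrays gave -0.22, -0.10, 0.05 and -0.19 in Hx-null, -0.08, 0.01, 0.25 and -0.06 in Hp-null, and 0.44, -0.10, 0.07 and -0.25 in HpHx-null. Rps19, a gene in which loss of 1 copy causes an inherited anaemia in people, had its highest value, 0.44, on HpHx-null replicate 1. The values of Rps27 were -0.06, -0.09, 0.06 and 0.09 in Hx-null, 0.11, -0.02, -0.22 and 0.29 in Hp-null, and 0.08, 0.05, 0.15 and -0.26 in HpHx-null. Rpsa measured -0.03, -0.02, 0.02 and 0.06 in Hx-null, 0.03, -0.15, -0.01 and 0.08 in Hp-null, and 0.01, 0.10, 0.11 and -0.07 in HpHx-null. Rps27 lay between -0.26 and 0.29, and Rpsa, known also as the laminin receptor, stayed between -0.15 and 0.11 on every array.

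Among large subunit proteins with several clones that shared enough arrays to compare, agreement between clones was weak apart from Rpl10 and 1 pair of Rpl4. Rpl17 ratios on replicates 1 to 4 were -0.21, -0.03, 0.04 and -0.07 in Hx-null, 0.001, -0.54, -0.25 and -0.08 in Hp-null, and -0.04, -0.19, -0.06 and -0.22 in HpHx-null. For Rpl23 the arrays gave -0.12, 0.07, -0.16 and -0.30 in Hx-null, -0.40, -0.10, -0.05 and -0.41 in Hp-null, and -0.04, -0.28, -0.04 and -0.09 in HpHx-null. The 3 clones of Rpl17 correlated pairwise at -0.37 to -0.0043 and the 3 of Rpl23 at -0.43 to 0.53. Rpl23, of the face that meets the small subunit, was negative on all 4 arrays of Hp-null, with a block-term ratio of -0.24 (SE 0.07, limma adjusted p = 0.0963). With clones kept apart, 1 of its 3 clones passed in Hp-null (-0.48, limma adjusted p = 0.00892) and the other 2 did not. The values of Rpl31 were -0.33, -0.10, -0.09 and -0.18 in Hx-null, -0.04, -0.53, -0.08 and -0.09 in Hp-null, and -0.18, -0.04, 0.08 and -0.26 in HpHx-null. Rpl7 measured 0.26, -0.10, -0.10 and -0.16 in Hx-null, 0.14, 0.13, -0.04 and 0.12 in Hp-null, and 0.02, -0.19, -0.13 and 0.17 in HpHx-null. The 2 clones of Rpl31 correlated at 0.15 and those of Rpl7 at -0.21. Over all members the 100 pairs of clones of the same gene had a median correlation of 0.93, and the 22 pairs without Eef1a1 one of 0.47.

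Rpl37a and Rpl37, small proteins of the large subunit, had negative ratios in Hx-null with the deposited sign. Rpl37 ratios on replicates 1 to 4 were -0.44, -0.27, -0.10 and -0.01 in Hx-null, 0.0038, 0.0045, 0.04 and 0.08 in Hp-null, and 0.11, -0.0014, -0.23 and -0.23 in HpHx-null. For Rpl37a the arrays gave -0.47, -0.60 and -0.02 (no value on replicate 3) in Hx-null, 0.09, 0.04 and 0.04 (no value on replicate 2) in Hp-null, and -0.80 (no value on replicates 2, 3 and 4) in HpHx-null. Rpl37 was negative on all 4 arrays of Hx-null and positive on all 4 of Hp-null, though by at most 0.08 there. Rpl37a was negative on 3 of 3 and positive on 3 of 3. How many of all features split in this way was not counted. The block-term ratios in Hx-null were -0.20 for Rpl37 (SE 0.08, limma adjusted p = 0.251) and -0.32 for Rpl37a (SE 0.11, limma adjusted p = 0.189). Turned by block, the Hx-null means were -0.15 for Rpl37 and -0.35 for Rpl37a, beside -0.28 for Eef2. The Hp-null means turned in the same way were -0.01 for Rpl37 and -0.03 for Rpl37a, so their signs no longer differed from Hx-null. The difference of Hp-null from Hx-null was 0.23 for Rpl37 and 0.33 for Rpl37a, and neither passed (limma adjusted p = 0.348 for both with the block term). The values of Rpl39 were 0.14, 0.73, -0.09 and -0.0043 in Hx-null, -0.17, -0.40, -0.12 and 0.04 in Hp-null, and 0.02, 0.12, 0.08 and -0.11 in HpHx-null. Rpl39, a small protein at the exit tunnel, had a mean of 0.19 ± 0.37 (SD, n = 4 arrays) in Hx-null, with 0.73 on replicate 2. Rpl41 measured -0.26, -0.29, 0.0041 and -0.12 in Hx-null, -0.01, 0.0038, -0.22 and -0.25 in Hp-null, and 0.0088, -0.21, -0.22 and -0.08 in HpHx-null. Rpl29 ratios on replicates 1 to 4 were 0.21, 0.06, -0.43 and -0.12 in Hx-null, 0.15, -0.0008 and -0.20 (no value on replicate 2) in Hp-null, and 0.15, -0.35, -0.25 and 0.10 in HpHx-null. Rpl41, a peptide of the large subunit, was between -0.29 and 0.01 throughout, and Rpl29 was positive or near 0 on the block A arrays that held it.

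Other genes of the translation pathway gave few measured members and none passed. Of ribosomal proteins named outside the rule, 2 of 3 annotated genes were measured, Fau (block-term ratio in Hp-null -0.29, limma adjusted p = 0.071) and Rpl7l1 (-0.27, adjusted p = 0.176). Of other messenger RNAs of the mTOR-controlled class and nascent chain factors, 3 of 8 were measured: Tpt1, Naca and Pabpc1, with Tpt1 at -0.36 (limma adjusted p = 0.0957), Naca at -0.09 and Pabpc1 at 0.11 in Hp-null. Of aminoacyl-tRNA synthetases, which load tRNAs, 6 of 30 were measured, of ribosome biogenesis factors 3 of 36, of signalling genes 1 of 8 (Mlst8, of the mTOR complexes), and of termination factors 0 of 5. With the block term, 7 of these 15 genes had a positive ratio in Hp-null and 8 a negative one; the highest were Nolc1 at 0.17 and Rrp9 at 0.16, both of ribosome biogenesis, and the synthetases Qars at 0.14 and Rars at 0.11. In the 7 comparisons 0 of these genes passed in either direction with the labelled dye or the block term.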

How the data were processed

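The authors deposited 1 table of log ratios for 31200 spots on 12 arrays, taken here as log2 values; the sources used here do not give their normalization, log base or filter on weak spots. Per the labels, RNA of each pool was labelled directly with Cy3 or Cy5. The 2 neighbouring spots of a clone were averaged and each array was centred on its median. Clones were named from the platform annotation, with spot k taking the entry of spot 31201 minus k, and clones of 1 gene were averaged, which gave 2052 features. A lookup of Entrez numbers in RefSeq (GRCm38.p6) changed 0 symbols.

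Tests needed values on 3 or more of the 4 arrays in every genotype of a comparison. Fits with an array left out needed values on 2 or more, so they tested a different set of features. The fit was limma 3.58.1 in R 4.3.3 on all 12 arrays (lmFit and robust eBayes, Benjamini-Hochberg threshold 0.05), with a coefficient per genotype and a term for the labelled dye. It was also run on simulated arrays whose effects followed the labelled dye, or the block, on every array. The simulated block case used a smaller spread. Real arrays of the same dye correlated negatively in Hp-null and HpHx-null, so that run does not show how the fit performs on them. A second fit replaced the dye by the block. Other settings are given in the closing section; 4 of them, the block term with clones apart, direct numbering, no moderation or complete features, were added after seeing the data. Precision is limited by the number of arrays.

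The members and the lists were chosen with earlier results of these data known. Named with values on every array were members passing with either term, members with several clones, the 3 highest and 3 lowest means per null, and the factors tested in all 3 nulls; others of the 29 were also given. Replicate numbers of the labels were checked for pairing: over 12 pairs of arrays with the same number, deviations from the genotype means correlated at -0.87 to 0.85, and 4 pairs were over 0.1, so the numbers were not treated as pairs.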

Additional observations from a re-analysis of the deposited data

Results flagged for a closer look

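In 4 of the 68 sets of 4 arrays examined, 1 array lay far from the other 3, where chance would single out about 1 set in 20. Eef1b2 was 0.28 on Hx-null replicate 1 and -0.20 to -0.14 on the others. Rpl7 was 0.26 on the same array and -0.16 to -0.10 on the others. That 0.26 averaged 2 clones of opposite sign, at 0.76 and -0.23. On Hp-null replicate 3 Rpl7 was -0.0389, below 0.12 to 0.14 on the others. Rpl31 was -0.53 on Hp-null replicate 2 and -0.09 to -0.04 on the others. Only 1 of its 2 clones held a value on that array, while the others averaged both. That clone alone gave -0.0004, -0.53, -0.26 and -0.05 on replicates 1 to 4, a less marked gap.

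With the deposited sign, the arrays of Hp-null and Hx-null lay on opposite sides of 0 for 2 genes of the large subunit. Only the members were searched for this, so the share of all features that split in this way is not known. For Rpl37 the mean of Hp-null minus that of Hx-null was 0.23, from means of 0.03 and -0.20. For Rpl37a it was 0.42, from means of 0.06 and -0.36 over 3 arrays each. The differences did not pass (limma adjusted p = 0.348 for both with the block term). Turned by block, the Hp-null means were -0.01 for Rpl37 and -0.03 for Rpl37a. These lay on the same side of 0 as the turned Hx-null means of -0.15 and -0.35.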

How the results depend on the processing

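With the labelled dye, 0 members passed in all 7 comparisons, and the number stayed at 0 with no dye term, with the signs turned by the labelled dye, with values as deposited, with quantile scaling, without moderation, with other filters on missing values, with only the arrays compared, with any array left out, with clones apart and with direct numbering. The replicate block, in which the replicate numbers of the labels replace the dye, also called 0 members in each comparison, with medians of -0.07, -0.09 and -0.06 in Hx-null, Hp-null and HpHx-null; 2 of 12 arrays correlated best with their own number.

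In Hp-null the block term called 4 members, 3 with values as deposited, 3 with quantile scaling, 1 without moderation (Rpl32), 0 to 4 with an array left out, 8 of the single clones and 2 with direct numbering. The share of all features called was 2.53%, 4.16% as deposited, 1.83% with quantile scaling, 0.248% without moderation, 0.394% to 4.91% with an array left out, 3.31% with clones apart and 3.31% with direct numbering. In Hx-null the unmoderated block term called 1 (Rpl32; 0.965% of all features), and in HpHx-null 1 clone passed (of Rpl23; 5.6%). With the signs turned by the block, 4 members passed in Hx-null, 6 in Hp-null, 3 in HpHx-null and 2 in HpHx-null against the sum of the single nulls; the block was chosen from these values, so these counts are a description. The turn called 43.9%, 53.2%, 38.6% and 24.4% of all features there, so the members' counts, of 27, 29, 22 and 22 tested, were below the share of all features. Single-gene ratios that passed after that turn and had changed sign were those of Eef1a1 (1.06 in Hx-null, 1.005 in Hp-null, -1.09 against the sum), Rpl4 (0.40 in Hp-null, -0.47 against the sum), Rps18 (0.31 in Hp-null), Eif3h (-0.24 in Hp-null) and Eif3a (0.32 in HpHx-null).

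The median ratio of the members in Hx-null, -0.07, was -0.0350 with signs turned by the dye or the block, -0.0842 with quantile scaling and -0.0825 with clones apart (with either term), 0.0669 with direct numbering and 0.0643 with direct numbering and the block term. In Hp-null, -0.10, it was -0.0262 and -0.0419 with signs turned by the dye and the block, -0.0581 as deposited (-0.0779 with the block term), -0.1205 with quantile scaling, -0.1208 with clones apart, -0.0663 on features complete on 12 arrays, and -0.0181 or -0.0097 with direct numbering, without and with the block term. With an array of Hp-null left out it was -0.1396 without replicate 1 and -0.0740 without replicate 2 with the labelled dye, and -0.1496, -0.0641 and -0.1255 without replicates 1, 2 and 4 with the block term. In HpHx-null, -0.05 over 22 members, it was 0.0142 and 0.0373 with signs turned by the dye and the block, -0.0936 with quantile scaling, -0.0853 as deposited and -0.0037 with direct numbering. Without its replicates 1 to 4 in turn, the members tested were 24, 27, 25 and 22, so the set changed as well as the arrays. Their medians were -0.1077, 0.0035, -0.0142 and -0.0950 with the labelled dye. With the block term they were -0.0978, -0.0493, -0.0180 and -0.0768. The cause of these shifts was not tested. The unknown direction, log base and spot filter and the single pool per genotype limit every value.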
